A study of Mus musculus with 6 samples.

Results

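The respiratory chain genes of mouse embryonic stem cells (ESCs) were read from a deposited table of 13743 entries, 1 value per gene and library. Members were taken by gene name: symbols that begin with Nduf followed by a, b, c, s or v, with Uqcr, Cox4 to Cox8, Atp5 or mt-, and Sdhb, Sdhc and Sdhd. This gave 102 genes, of which 89 are encoded in the nucleus and 13 in the mitochondrion. By name the nuclear set holds 36 complex I genes, 7 complex I assembly factors (Ndufaf1 to Ndufaf7), 3 genes of complex II, 8 of complex III, 18 of complex IV and 15 of complex V. The remaining pair, Atp5s and Atp5sl, carry the Atp5 name without being subunits of the enzyme. Ndufa4, its paralog Ndufa4l2 and Cox7a2l were counted with complex IV, since the Ndufa4 protein is a subunit of that complex. Cox4i1 and Cox8b were not analysed here.

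The study asked how gene expression responds when a microRNA, or an siRNA against the mRNA of Mbd2, is put into cells that make no canonical microRNAs. The cells were Dgcr8-/- ESCs of strain C57/129. Dgcr8 works with Drosha to cut primary microRNA transcripts, and every group, the control included, lacks it. In the miR-294 group 50 nM of a miR-294 mimic was transfected, in the siMbd2 group 50 nM of siRNA against Mbd2, and the CTR group had a control transfection whose contents no source used here gives and which the table calls mock. All 6 libraries, 2 per group, were made from RNA taken at 48 h. Nothing states that the 2 libraries of a group came from separate cultures, so p-values measure only the spread between these libraries, which may be technical. Mbd2 stood at 11.3 and 12.3 RPKM with miR-294, 7.33 and 6.34 RPKM with siMbd2 and 26.8 and 27.9 RPKM in CTR. Dgcr8 mRNA itself was present at 6.66 to 8.44 RPKM, and a gene-level value does not show whether the transcript is intact.

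The respiratory chain passes electrons from NADH (complex I) and succinate (complex II) through ubiquinone, complex III and cytochrome c to oxygen at complex IV, and the proton gradient built on the way drives ATP synthesis by complex V. Its subunits come from both genomes: the mitochondrial DNA encodes the proton-pumping core of complex I, cytochrome b, the catalytic subunits of complex IV and a pair of membrane subunits of complex V, and the nucleus encodes everything else, including all of complex II. Pluripotent stem cells are known for relying strongly on glycolysis while keeping an active chain. The miR-290 family, to which miR-294 belongs, is the dominant microRNA family of mouse ESCs.

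The mimic carries the mature miR-294 sequence, shown because its seed (bases 2 to 8, in capitals) defines the sites searched for below. The sequence is from RefSeq, GRCm38.p6, chr7:3220691-3220712, plus strand.
mmu-miR-294-3p: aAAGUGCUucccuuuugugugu

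Values are RPKM, reads corrected for transcript length and for the size of the library, so levels can be compared between genes, while read depths are unknown and counting errors cannot be stated. Changes are differences of log2(RPKM + 1) from a limma fit over all 11428 entries with a mean of at least 1 RPKM, a scale that understates the change of low genes, and a gene was called at a Benjamini-Hochberg adjusted p under 0.05. Of the members, 84 nuclear and all 13 mitochondrial genes passed this minimum. With 2 libraries on each side the smallest p of an exact permutation test is 0.333, so each call rests on the spread that limma estimates over all genes. The median absolute difference between replicates over the nuclear members was 0.04 (log2) with miR-294, 0.05 with siMbd2 and 0.15 in CTR. All 8 markers of ESCs were at 1 RPKM or more in every library. Of 7 markers of feeder fibroblasts 2 had an entry, Thy1 and Col1a1, and they summed to 3.56 to 3.89 RPKM with miR-294, 1.15 to 1.32 with siMbd2 and 1.53 to 1.64 in CTR. Of 9 markers of early differentiation 8 had an entry, summing to 15.7 to 16.0 RPKM with miR-294, 24.5 to 25.5 with siMbd2 and 26.4 in both CTR libraries. Among these Foxa2 was at 0 in CTR replicate 2 and Sox17 at 0 in siMbd2 replicate 2. In bulk RNA a change in the mix of cells and a change in RNA per cell cannot be told apart, and the part of either marker list in the results was not tested.

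With miR-294 the nuclear genes of the chain were more often higher than lower relative to CTR, and 7 of the 13 mitochondrial genes were lower. Summed over the 89 nuclear members, RPKM came to 12612 and 12573 with miR-294, 11518 and 11143 with siMbd2 and 11052 and 9917 in CTR. Summed over the 13 mitochondrial genes, RPKM came to 12449 and 13108 with miR-294, 15388 and 15682 with siMbd2 and 13660 and 17739 in CTR. The ratio of mitochondrial to nuclear sums was thus 0.987 and 1.04 with miR-294, 1.34 and 1.41 with siMbd2 and 1.24 and 1.79 in CTR. The miR-294 pair was the lowest on this ratio, and the CTR pair spanned the siMbd2 pair. RPKM summed over all entries was also larger with miR-294, at 493079 and 488568, against 470333 and 464663 with siMbd2 and 450520 and 429460 in CTR. As a share of these totals, complex I was 0.639% and 0.647% with miR-294, 0.620% and 0.606% with siMbd2 and 0.650% and 0.622% in CTR, and complex II was 0.0400% and 0.0415% with miR-294, 0.0393% and 0.0386% with siMbd2 and 0.0403% and 0.0369% in CTR. On that scale the miR-294 and CTR libraries overlapped for complexes I and II, while for complexes III, IV and V the miR-294 pair was above CTR.

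**Figure D1:**
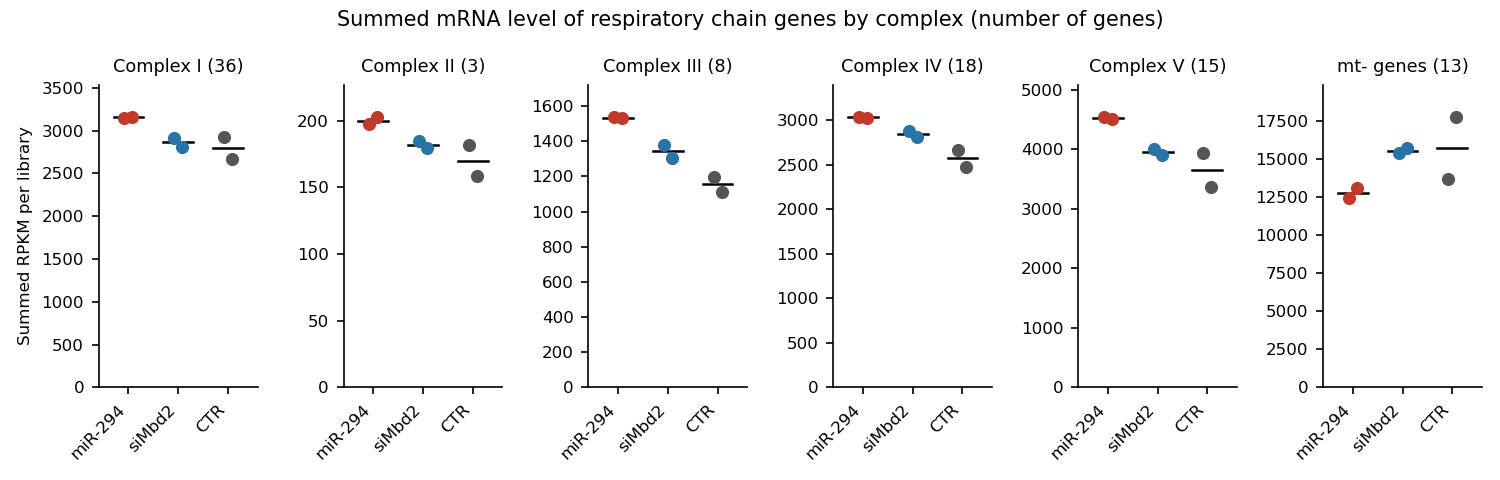
Summed RPKM (vertical axis, from 0) of the genes of each complex in each library; points are the 2 libraries of a group and bars their mean. For complexes I to V both miR-294 libraries lie above both CTR libraries (complex III: 1538 and 1530 with miR-294, 1198 and 1114 in CTR), while for the mt- genes both lie below; as a share of total RPKM complexes I and II overlap.

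Among the 84 nuclear members tested, 39 were higher and 7 lower with miR-294 than in CTR, against 27.7% of all entries tested higher and 36.8% lower. Their median change was 0.18 (log2), where that of all entries was -0.08. With siMbd2 24 were higher and 7 lower than in CTR, against 19.5% and 14.9% of all entries, with a median of 0.06 beside 0.02 over all entries. Between the treatments, 33 were higher and 3 lower with miR-294 than with siMbd2, against 21.9% and 35.5% of all entries, with a median of 0.11 beside -0.08 over all entries. The comparisons with CTR share their control libraries. In miR-294 vs CTR the split depended on scaling: 26 were higher and 21 lower after quantile normalization, 28 and 23 after rescaling each library to its sum without mt- entries, and 32 and 17 once the trend with transcript length was removed. In that contrast 23 nuclear genes were called higher, and 4 lower, in the limma fit and in each of 4 scaling and length alternatives. Genes named below in miR-294 vs CTR as holding under every scaling are among these 27. Single libraries moved the counts as well. In miR-294 vs CTR 4 were lower once miR-294 replicate 1 was left out, and 13 once CTR replicate 2 was. In siMbd2 vs CTR 40 were higher without CTR replicate 1 and 14 without either siMbd2 library, and 14 were lower without CTR replicate 2 and 2 without siMbd2 replicate 2. In miR-294 vs siMbd2 17 and 18 were higher without miR-294 replicate 1 or 2, 19 and 14 without siMbd2 replicate 1 or 2, and 13 were lower without either CTR library.

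**Figure D2:**
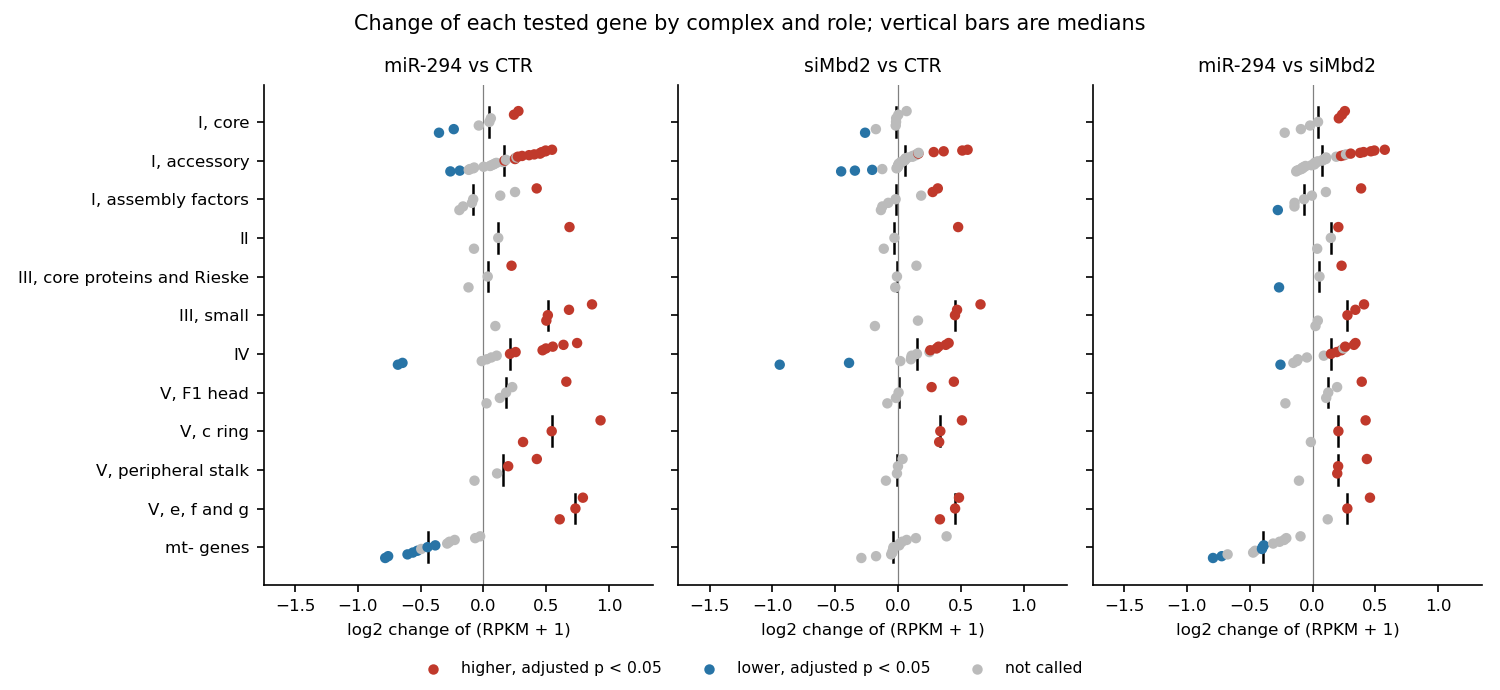
Change of each tested member (horizontal axis, log2 of RPKM + 1) in the 3 contrasts, grouped by complex and role; red and blue points are genes called higher and lower by limma, grey points were not called, and vertical bars are group medians. With miR-294 against CTR the c ring, the e, f and g subunits and the small subunits of complex III have medians of 0.54, 0.73 and 0.51, and the mt- genes one of -0.45.

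These genes are short and strongly expressed, and so were many others that were higher. The median transcript of a nuclear member is 891.5 bases, against 2914 for all tested entries. Among genes under 1000 bases with a mean of at least 50 RPKM, 26 of 42 members (61.9%) were higher with miR-294 than in CTR, with a median of 0.28. In the same class outside the members, 154 of 209 entries (73.7%) were higher, with a median of 0.41. With siMbd2 against CTR the shares were 15 of 42 members (35.7%) and 114 of 209 other entries (54.5%). With miR-294 against siMbd2 they were 21 of 42 (50.0%) and 105 of 209 (50.2%). The shares of members called higher were therefore no larger than those of other short, abundant mRNAs in any contrast. Across the 84 genes, Spearman's rho between transcript length and change in miR-294 vs CTR was -0.30, and over 11367 entries with a length it was -0.25; genes share their libraries and are not replicates.

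**Figure D3:**
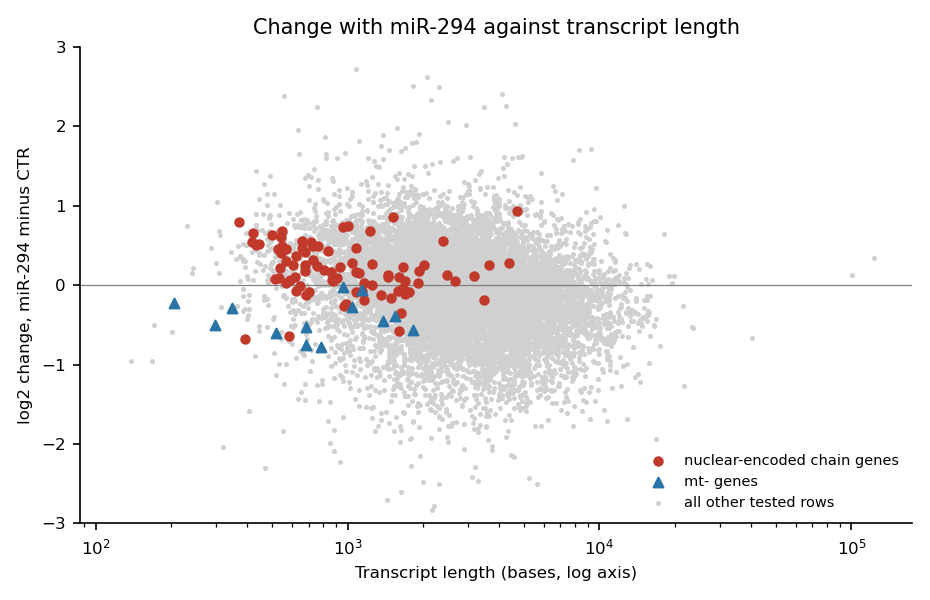
Change with miR-294 against CTR (vertical axis, log2) by transcript length (horizontal log axis, bases) for 11367 tested entries; 6 entries beyond 3 in either direction are not drawn. Nuclear chain genes (red) sit among the short transcripts, most of them above 0, while all 13 mt- genes (blue) lie below 0.

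Complex I, the NADH dehydrogenase, has 7 nuclear core subunits that carry flavin and iron-sulfur clusters, and 29 of the members are accessory subunits around them. Of the core subunits 2 were higher with miR-294 than in CTR (Ndufs3 and Ndufs7) and 2 were lower, 28.6% each. Over all entries 27.7% were higher and 36.8% lower. The other 3 core subunits were not called. The calls of Ndufs3 and Ndufs7 were lost when rescaled to the sum without mt- entries (0.11 and 0.07), with the length trend removed (0.14 and 0.06) and without either miR-294 library (0.27 and 0.28 for Ndufs3, 0.26 and 0.23 for Ndufs7). Ndufs1, an iron-sulfur subunit, differed by 0.05 ± 0.05 (log2 difference from CTR ± SE, limma) with miR-294 and was not called in any contrast.

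Of the 29 accessory subunits 13 were higher and 2 lower with miR-294 than in CTR, against 27.7% and 36.8% of all entries. With siMbd2 5 were higher (17.2%) and 3 lower (10.3%), below the 19.5% and 14.9% of all entries. Ndufa1, a small membrane-arm subunit encoded on the X chromosome, stood at 102 and 104 RPKM with miR-294, 101 and 106 RPKM with siMbd2 and 71.7 and 68.7 RPKM in CTR. The treatments overlapped and all 4 treated libraries were above CTR, with a rise of 0.55 ± 0.06 for each treatment. Ndufb10 was at 84.3 and 77.8 RPKM with miR-294, 64.2 and 59.9 RPKM with siMbd2 and 64.4 and 50.7 RPKM in CTR, so that only the miR-294 pair stood clear of CTR (0.50 ± 0.10, adjusted p = 0.00313). Ndufb3 exceeded its siMbd2 level with miR-294 by 0.49 ± 0.07 and its CTR level by 0.50 ± 0.07, and differed by 0.00 ± 0.07 between siMbd2 and CTR. Ndufa7 showed the largest difference between the treatments among complex I genes, at 326 and 324 RPKM with miR-294 against 227 and 208 RPKM with siMbd2 (0.58 ± 0.09, adjusted p = 0.00073).

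Some accessory subunits moved the other way with siMbd2. Ndufa6, which lies beside the ubiquinone site, was at 96.0 and 99.7 RPKM with miR-294, 77.6 and 69.8 RPKM with siMbd2 and 97.7 and 89.6 RPKM in CTR, a fall of 0.34 ± 0.07 (adjusted p = 0.00755) with siMbd2 that was not called without siMbd2 replicate 2 (-0.27). Ndufb4 fell with both, to 14.0 and 15.9 RPKM with miR-294 and 13.2 and 12.6 RPKM with siMbd2, against 17.5 and 18.7 RPKM in CTR. Its call with siMbd2 was lost without siMbd2 replicate 2 (-0.42), and that with miR-294 after median-of-ratios scaling (-0.20), after quantile normalization (-0.15) and when miR-294 replicate 1 (-0.18) or CTR replicate 2 (-0.22) was left out. Of its transcript, 40.2% has a near-identical stretch in another annotated gene, so its reads may have been split. Such stretches were found for 16 of the 89 nuclear members, and covered at least 50% of the transcript in 6. Among them are Ndufs3 (75.7%), Uqcrb (62.8%), Cox7c (58.3%), Atp5l (57.4%), Cox5b (45.1%) and Uqcr11 (38.4%), whose values carry the same limit. Of the 7 assembly factors with the Ndufaf name, which build the complex without staying in it, Ndufaf2 alone was called in miR-294 vs CTR. It was higher, at 37.1 and 38 RPKM with miR-294, 34.9 and 34.7 RPKM with siMbd2 and 28.2 and 27.3 RPKM in CTR. The share called higher was 14.3%, against 27.7% of all entries. In siMbd2 vs CTR it was 28.6%, against 19.5%. Ndufaf2 and Ndufaf1 were higher with siMbd2 than in CTR, and neither was called without either siMbd2 library (Ndufaf2 0.31 and 0.32, Ndufaf1 0.27 and 0.28). The Ndufaf1 call was also lost without mt- entries (0.19) and with the length trend removed (0.205). With miR-294 against siMbd2 Ndufaf4 was higher and Ndufaf7 lower (14.3% each), against 21.9% and 35.5% of all entries. The Ndufaf4 call was lost without mt- entries (0.31) and the Ndufaf7 call after quantile normalization (-0.10).

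Complex II, succinate dehydrogenase, has a flavoprotein (Sdha, outside the name rule), an iron-sulfur subunit (Sdhb) and a pair of membrane anchors (Sdhc and Sdhd). Of the 3 members Sdhd was the one called. It stood at 72.3 and 77.5 RPKM with miR-294, 65.9 and 63.6 RPKM with siMbd2 and 48.4 and 44.1 RPKM in CTR, so the groups did not overlap. The rise was 0.69 ± 0.07 (adjusted p = 4.69e-05) with miR-294 and 0.48 ± 0.07 (adjusted p = 0.00158) with siMbd2, and both held under every scaling and without each library in turn. Sdhb and Sdhc were not called in any contrast, at 61.2 and 61.5 RPKM for Sdhb with miR-294, 60.8 and 58.7 with siMbd2 and 69.1 and 60.6 in CTR. The ratio of Sdhd to Sdhb RPKM was 1.18 and 1.26 with miR-294, 1.08 and 1.08 with siMbd2 and 0.700 and 0.727 in CTR. Sdha was lower with miR-294 than in CTR by 0.22 (log2).

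Complex III, the cytochrome bc1 complex, has large core proteins (Uqcrc1 and Uqcrc2), the Rieske iron-sulfur protein (Uqcrfs1) and a set of small subunits. Of the 5 small subunits 4 were higher with miR-294 than in CTR (Uqcrq, Uqcrh, Uqcr11 and Uqcr10), against 27.7% of all entries. With siMbd2 3 were higher (Uqcrh, Uqcr11 and Uqcrq), against 19.5%. The other small subunit, Uqcrb, was not called against CTR, at 231 and 216 RPKM with miR-294, 186 and 182 RPKM with siMbd2 and 192 and 229 RPKM in CTR. The rise of Uqcr10 lost its call after quantile normalization (0.20). Uqcrq, a small subunit that contacts cytochrome b, stood at 217 and 225 RPKM with miR-294, 171 and 161 RPKM with siMbd2 and 127 and 115 RPKM in CTR. The 3 groups were separate, with a rise over CTR of 0.86 ± 0.07 (adjusted p = 1.46e-05) with miR-294 and 0.45 ± 0.07 with siMbd2. Uqcrh, the acidic hinge protein, was at 216 and 215 RPKM with miR-294, 216 and 208 RPKM with siMbd2 and 138 and 130 RPKM in CTR. Its rises over CTR were 0.68 ± 0.05 with miR-294 and 0.66 ± 0.05 with siMbd2, and the treatments overlapped. Of the large subunits, Uqcrc1 alone was called with miR-294, higher by 0.22 ± 0.09 (adjusted p = 0.0484), a difference that turned to -0.04 after quantile normalization, and the call was also lost without any 1 library other than CTR replicate 1. Uqcrfs1 was at 61.1 and 61.2 RPKM with miR-294 and 75.0 and 72.5 RPKM with siMbd2, against 69.2 and 63.9 RPKM in CTR, and was lower with miR-294 than with siMbd2 by 0.27 ± 0.06, a call lost without siMbd2 replicate 1 (-0.24). The ratio of Uqcrq to Uqcrc2 was 2.64 and 2.67 with miR-294, 2.10 and 2.04 with siMbd2 and 1.56 and 1.42 in CTR.

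**Figure D4:**
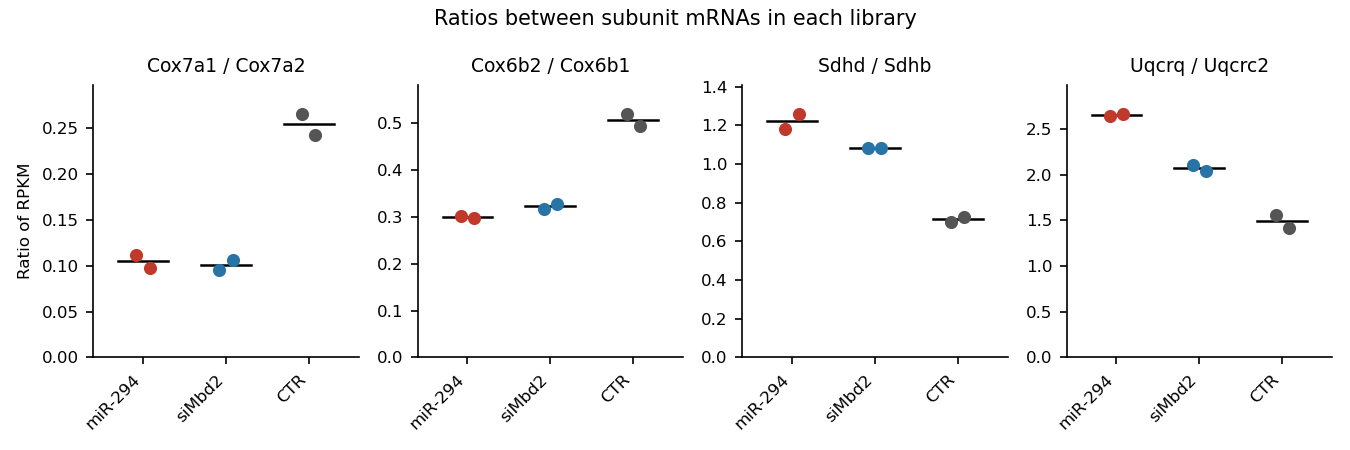
Ratio of RPKM (vertical axis, from 0) between 4 pairs of subunit mRNAs in each library; points are libraries and bars group means. Cox7a1 over Cox7a2 and Cox6b2 over Cox6b1 are lower in the 4 treated libraries than in CTR, and Sdhd over Sdhb and Uqcrq over Uqcrc2 are higher.

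Complex IV, cytochrome c oxidase, reduces oxygen, and several of its nuclear subunits exist as tissue isoforms. Of the 13 tested members 7 were higher and 2 lower with miR-294 than in CTR, against 27.7% and 36.8% of all entries. With siMbd2 5 were higher and 2 lower, against 19.5% and 14.9%. The lower pair was the same in both and consists of isoforms known from other tissues. Cox7a1, the heart and muscle form, was at 14.47 and 12.98 RPKM with miR-294, 11.0 and 11.6 RPKM with siMbd2 and 23.7 and 21.6 RPKM in CTR, a fall of 0.68 ± 0.08 (adjusted p = 0.000144) with miR-294 and of 0.94 ± 0.08 (adjusted p = 0.0003) with siMbd2. Its ubiquitous counterpart Cox7a2 rose, to 129 and 133 RPKM with miR-294 and 115 and 108 RPKM with siMbd2, against 88.9 and 88.9 RPKM in CTR; its call with siMbd2 was lost without siMbd2 replicate 1 (0.28). The ratio of Cox7a1 to Cox7a2 was therefore 0.112 and 0.0977 with miR-294, 0.0958 and 0.107 with siMbd2 and 0.266 and 0.243 in CTR. All 4 treated libraries lay below both CTR libraries, and those of the treatments overlapped.

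Cox6b2, the testis form, was at 87.6 and 85.0 RPKM with miR-294, 104 and 102 RPKM with siMbd2 and 146 and 126 RPKM in CTR, a fall of 0.65 ± 0.07 (adjusted p = 0.000105) with miR-294 and 0.39 ± 0.07 with siMbd2. With siMbd2 the call was lost without siMbd2 replicate 2 (-0.37). Cox6b1, the ubiquitous form, differed by 0.10 ± 0.06 with miR-294 and was higher by 0.26 ± 0.06 with siMbd2, a call lost after quantile normalization (0.13), with the length trend removed (0.13) and without siMbd2 replicate 1 (0.21) or 2 (0.30). The ratio of Cox6b2 to Cox6b1 was 0.302 and 0.298 with miR-294, 0.317 and 0.328 with siMbd2 and 0.520 and 0.493 in CTR. The falls of Cox7a1 and Cox6b2 with miR-294 held under every scaling and without each library in turn. The other tissue forms among the members, Cox4i2, Cox6a2, Cox7b2, Cox8c and Ndufa4l2, stayed under the minimum, at 0 to 1.33 RPKM in any library, and were not tested.

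The largest rises in complex IV with miR-294 against CTR were those of Cox7b and Cox6c, both small membrane subunits. Cox7b was at 154 and 155 RPKM with miR-294, 119 and 124 RPKM with siMbd2 and 92.6 and 90.5 RPKM in CTR (0.75 ± 0.05 with miR-294, adjusted p = 1e-05; 0.40 ± 0.05 with siMbd2). Cox6c, the most abundant of the nuclear complex IV mRNAs with miR-294, was at 439 and 453 RPKM with miR-294, 358 and 351 RPKM with siMbd2 and 291 and 282 RPKM in CTR. For both genes miR-294 was above siMbd2 and siMbd2 above CTR with no overlap. Cox7a2l, which links complexes III and IV into supercomplexes, was higher by 0.47 ± 0.07 with miR-294 and 0.38 ± 0.07 with siMbd2, not called with siMbd2 once siMbd2 replicate 2 was left out (0.38). Cox6a1, also a small membrane subunit, overlapped CTR, at 192 and 186 RPKM with miR-294 against 199 and 173 RPKM. It was called lower after quantile normalization (-0.22), without mt- entries (-0.15) and with the length trend removed (-0.20). The rise of Cox7c, another, lost its call without mt- entries (0.04) and turned to -0.05 after quantile normalization. The larger matrix-facing subunits Cox5a and Cox5b were not called in any contrast in the deposited scaling. After quantile normalization Cox5b was called lower with miR-294 than in CTR (-0.26).

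Complex V, ATP synthase, joins a catalytic F1 head to a membrane part that holds the turning ring of c subunits. Of its 15 members 9 were higher with miR-294 than in CTR and 8 with siMbd2, against 27.7% and 19.5% of all entries. None was lower in limma in the deposited scaling (0 had an unadjusted p under 0.05). Atp5c1 was called lower with miR-294 than in CTR after quantile normalization (-0.24) and without mt- entries (-0.15). The parts of the enzyme differed. All 3 genes for the c subunit, Atp5g1, Atp5g2 and Atp5g3, whose mature proteins are identical, were higher with both treatments. Atp5g1 was at 221 and 222 RPKM with miR-294, 164 and 166 RPKM with siMbd2 and 130 and 102 RPKM in CTR (0.93 ± 0.10 with miR-294, adjusted p = 6.85e-05; 0.51 ± 0.10 with siMbd2). It showed the highest change with miR-294 of the 84 nuclear members. Its share of the summed RPKM of the 3 genes was 30.2% and 29.5% with miR-294, 25.8% and 25.7% with siMbd2 and 24.5% and 22.4% in CTR. Of the Atp5g2 transcript, 88.2% has a near-identical stretch elsewhere, so its level is uncertain. Its calls were lost after quantile normalization, without mt- entries and with the length trend removed, at 0.06, 0.14 and 0.12 with miR-294 and 0.25, 0.24 and 0.21 with siMbd2. They were also lost without either library of the treatment, and the siMbd2 call without either miR-294 library.

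The membrane subunits e, f and g (Atp5k, Atp5j2 and Atp5l), which sit where ATP synthase dimers meet, were all higher with both treatments. Atp5k was at 255 and 258 RPKM with miR-294, 190 and 183 RPKM with siMbd2 and 146 and 149 RPKM in CTR (0.79 ± 0.05 with miR-294, adjusted p = 7.4e-06; 0.33 ± 0.05 with siMbd2). Of the 5 subunits of the F1 head only epsilon (Atp5e) was called with miR-294, at 237 and 234 RPKM with miR-294, 181 and 178 RPKM with siMbd2 and 160 and 138 RPKM in CTR. With siMbd2 epsilon was higher by 0.27 ± 0.07 and delta (Atp5d) by 0.45 ± 0.12. Delta was at 123 and 121 RPKM with miR-294, 144 and 140 RPKM with siMbd2 and 121 and 89.3 RPKM in CTR. Neither siMbd2 call held without siMbd2 replicate 1 (0.26 for epsilon, 0.42 for delta) or 2 (0.28 and 0.47), nor that of epsilon with the length trend removed (0.12). The catalytic beta subunit (Atp5b), the most abundant nuclear mRNA of the chain, was at 1449 and 1403 RPKM with miR-294, 1284 and 1207 RPKM with siMbd2 and 1469 and 1078 RPKM in CTR. The CTR pair spanned both treated pairs, and the miR-294 pair lay above the siMbd2 pair. In the peripheral stalk Atp5o, which holds the head, was higher with miR-294 than in CTR by 0.42 ± 0.07 and than with siMbd2 by 0.43 ± 0.07, and differed by -0.01 ± 0.07 between siMbd2 and CTR. None of the 4 stalk genes was called by limma in siMbd2 vs CTR (0 at an unadjusted p under 0.05). Atp5d, Atp5e, Atp5j2 and Atp5o were singled out after their values were seen, as were Uqcr10, Uqcrb and Ndufb3 in the contrasts with CTR.

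The Atp5-named genes outside the enzyme split. Atp5s was at 3.51 and 4.02 RPKM with miR-294, 2.65 and 2.65 RPKM with siMbd2 and 5.60 and 6.67 RPKM in CTR, lower by 0.58 ± 0.10 with miR-294 and by 0.96 ± 0.10 with siMbd2 (adjusted p = 0.000633). Atp5sl was at 20.6 and 20.0 RPKM with miR-294, 16.9 and 15.2 RPKM with siMbd2 and 14.2 and 12.9 RPKM in CTR, a rise of 0.55 ± 0.08 with miR-294.

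Matches to the miR-294 seed were rare among the chain's transcripts. The letters searched in the longest annotated 3' UTR (GENCODE vM21, GRCm38) were AGCACTTA, AGCACTT without that final A, and GCACTTA. Of the 84 tested nuclear members 10 (11.9%) held one, against 2471 of 11228 tested entries with a UTR (22.01%). Over all entries the median change with miR-294 against CTR was -0.37 for AGCACTTA, -0.21 for AGCACTT, -0.22 for GCACTTA and -0.03 without any. The 5 members with AGCACTT were all called higher: Atp5g1, Sdhd, Atp5sl, Ndufb2 and Ndufb8. Of all 1664 entries with AGCACTT 269 were called higher and 803 lower. Of the 4 members with GCACTTA 1 was called lower and 0 higher, where of all 384 such entries 184 were lower and 75 higher. Ndufb2 (0.27) and Ndufb8 (0.25) were not called after quantile normalization (0.09 and 0.0037), without mt- entries (0.10 and 0.08) or without either miR-294 library, Ndufb2 also without CTR replicate 2 (0.10) or either siMbd2 library, and Ndufb8 also with the length trend removed (0.05). A match is a string of letters in an annotation and not a measured site, and the UTR that these cells use is not known.
The 3 windows below are shown because they belong to the members with AGCACTT that had the largest rises with miR-294, or to the only member with the longest match; capitals mark the match, and the strand is that of the gene.
Sdhd, chr9:50597061-50597083, minus strand: ctgggtgcAGCACTTtgattgtg
Atp5g1, chr11:96069415-96069437, minus strand: gtaatcccAGCACTTggagtatg
Ndufs4, chr13:114288525-114288548, minus strand: gaaatcagAGCACTTAgagtttac
Sdhd and Atp5g1 rose with miR-294, and Ndufs4 (an accessory complex I subunit) was at 39.5 and 38.7 RPKM with miR-294 against 42.4 and 42.0 RPKM in CTR, not called (-0.11 ± 0.06, adjusted p = 0.131).

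Promoters of nuclear chain genes are known for motifs of NRF1, of ETS factors such as GABPA, and of YY1. Promoter sequences from RefSeq (GRCm38.p6), 250 bases before to 50 after each start, were found for 73 of the 84 tested nuclear members. The letters GCGCANGCG, the NRF1 core, were in 28.8% of these, against 16.3% of the promoters of tested entries and 7.03% of 27025 genes in the promoter table. The ETS letters CCGGAAG were in 23.3%, against 21.5% and 9.93%, the YY1 letters AAGATGGCG in 11.0%, against 3.88% and 1.64%, and the E-box CACGTG in 9.59%, against 12.2% and 8.09%. Both strands were searched, and matches may overlap. Members called higher with miR-294 held the NRF1 letters in 11 of 36 promoters and the other members in 10 of 37; for the ETS letters the counts were 11 of 36 and 6 of 37.
The promoters below are, for each motif, that of the member with the largest rise with miR-294 that held under every scaling (Atp5k has both the NRF1 and the ETS letters), and that of Cox7a1, the largest such fall; motif letters are in capitals and none is in the Cox7a1 window.
Atp5k, chr5:108434350-108434649, minus strand: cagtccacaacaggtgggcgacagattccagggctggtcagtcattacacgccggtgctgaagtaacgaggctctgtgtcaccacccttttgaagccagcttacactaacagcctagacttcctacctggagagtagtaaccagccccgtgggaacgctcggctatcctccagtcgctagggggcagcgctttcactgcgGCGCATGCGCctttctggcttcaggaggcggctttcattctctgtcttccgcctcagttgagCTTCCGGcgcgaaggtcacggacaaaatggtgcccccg
Atp5j2, chr5:145191492-145191791, minus strand: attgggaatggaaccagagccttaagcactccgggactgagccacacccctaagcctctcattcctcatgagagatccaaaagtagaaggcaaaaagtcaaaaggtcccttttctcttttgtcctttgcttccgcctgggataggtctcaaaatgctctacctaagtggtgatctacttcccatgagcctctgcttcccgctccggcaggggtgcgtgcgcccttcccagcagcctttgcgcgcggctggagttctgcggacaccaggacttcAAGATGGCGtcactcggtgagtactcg
Atp5g1, chr11:96075582-96075881, minus strand: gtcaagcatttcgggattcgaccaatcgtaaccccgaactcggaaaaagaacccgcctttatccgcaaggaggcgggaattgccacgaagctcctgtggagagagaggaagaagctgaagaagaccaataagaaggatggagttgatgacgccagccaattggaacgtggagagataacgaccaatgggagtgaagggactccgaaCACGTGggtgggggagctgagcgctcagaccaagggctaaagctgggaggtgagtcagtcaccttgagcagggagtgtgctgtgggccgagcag
Cox7a1, chr7:30183921-30184220, plus strand: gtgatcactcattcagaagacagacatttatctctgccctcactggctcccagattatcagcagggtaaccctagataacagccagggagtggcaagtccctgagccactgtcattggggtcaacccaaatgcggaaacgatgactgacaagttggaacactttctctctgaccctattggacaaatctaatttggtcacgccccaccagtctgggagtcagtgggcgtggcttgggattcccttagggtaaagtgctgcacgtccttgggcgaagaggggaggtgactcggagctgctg

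The 13 mitochondrial mRNAs are made as long transcripts from both strands of the mitochondrial DNA and cut apart afterwards. With miR-294 against CTR 7 of 13 were lower (53.8%), against 36.8% of all entries, and none was higher by limma. Their median change was -0.45. For 7 of 13 both miR-294 libraries lay below both CTR libraries, against 46.0% of all entries. None of the 13 was called in siMbd2 vs CTR (median -0.04; 0 at an unadjusted p under 0.05). With miR-294 against siMbd2 5 of 13 were lower (38.5%, median -0.40), near the 35.5% of all entries. For all 13 both miR-294 libraries lay below both siMbd2 libraries, against 49.6% of all entries.

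**Figure D5:**
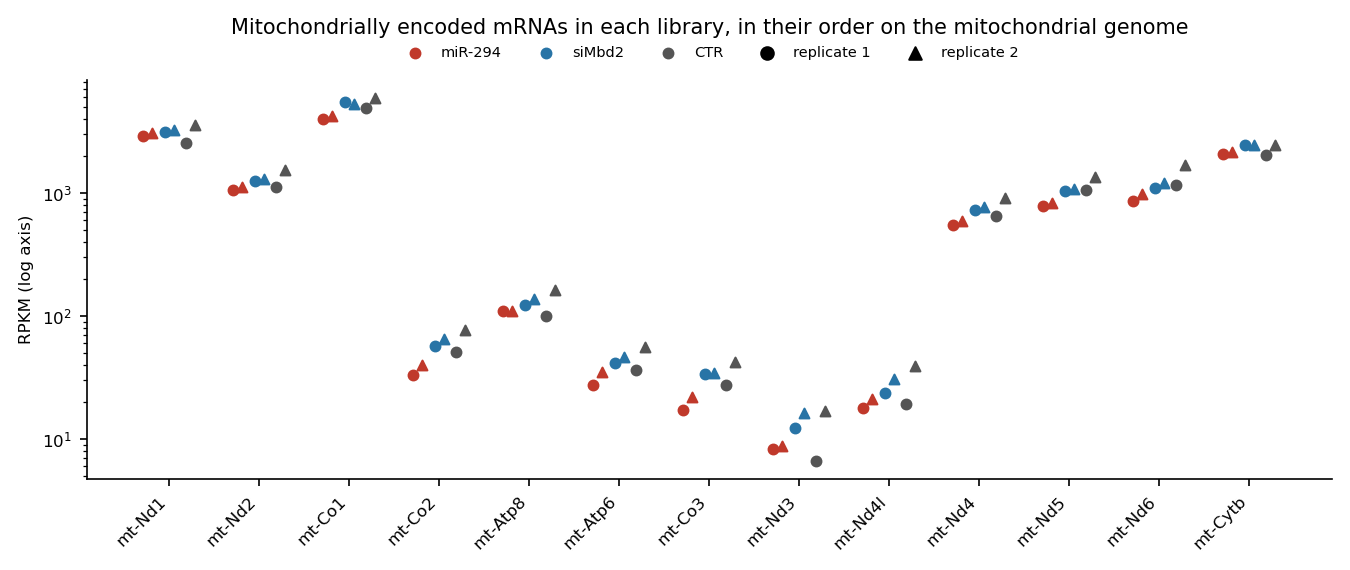
RPKM (vertical log axis) of the 13 mitochondrially encoded mRNAs in each library, in genome order; colours are groups, circles replicate 1 and triangles replicate 2. The miR-294 points lie below the siMbd2 points for every gene, and CTR replicate 2 lies above CTR replicate 1 for every gene.

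The comparison with CTR rests on a pair of libraries that disagree. CTR replicate 2 was above CTR replicate 1 for 13 of 13 mitochondrial genes, by a median of 0.54 (log2), where the miR-294 libraries differed by a median of 0.09 and the siMbd2 libraries by 0.08. Without CTR replicate 1, 13 mitochondrial genes were lower with miR-294 than CTR (median -0.75) and 8 lower with siMbd2. Without CTR replicate 2, 6 were lower and 1 higher with miR-294 (median -0.20), and 7 were higher with siMbd2 (median 0.26). Without miR-294 replicate 1, 3 were called in miR-294 vs CTR and 2 in miR-294 vs siMbd2, and without siMbd2 replicate 2, 3 in the comparison of the treatments. The spread of the CTR pair also enters the comparison of the treatments: fitted on the miR-294 and siMbd2 libraries alone, 12 of 13 were lower with miR-294 instead of 5.

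All 3 mRNAs for complex IV fell with miR-294, and mt-Co2 and mt-Co3 had the largest changes of the 13 genes. mt-Co1, the catalytic subunit, was at 4007 and 4183 RPKM with miR-294, 5478 and 5312 RPKM with siMbd2 and 4878 and 5851 RPKM in CTR, lower with miR-294 by 0.38 ± 0.09 (adjusted p = 0.00565) than in CTR and by 0.40 ± 0.09 than with siMbd2. mt-Co2, which takes electrons from cytochrome c, was at 33.3 and 40.0 RPKM with miR-294, 57.1 and 64.9 RPKM with siMbd2 and 50.8 and 76.7 RPKM in CTR. mt-Co3 was at 17.2 and 21.8 RPKM with miR-294, 34.0 and 34.6 RPKM with siMbd2 and 27.2 and 42.5 RPKM in CTR. For all 3 the miR-294 pair lay below the other 4 libraries, by 0.76 ± 0.17 for mt-Co2 and 0.78 ± 0.18 for mt-Co3 relative to CTR. The mt-Co1 call was lost after quantile normalization (-0.22 against CTR, -0.10 against siMbd2) and without miR-294 replicate 1 (-0.35 and -0.37). The ratio of mt-Co1 to nuclear Cox5a mRNA, partners in the same complex, was 12.9 and 13.5 with miR-294, 15.8 and 16.2 with siMbd2 and 15.1 and 19.2 in CTR.

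Of the complex I genes mt-Nd4, mt-Nd5 and mt-Nd6 fell with miR-294 against CTR. The calls of mt-Nd4 (-0.40) and mt-Nd6 (-0.52) were lost without miR-294 replicate 1. mt-Nd5 was at 782 and 830 RPKM with miR-294, 1027 and 1083 RPKM with siMbd2 and 1049 and 1351 RPKM in CTR (-0.56 ± 0.11, adjusted p = 0.0018). mt-Nd6, the only mRNA from the opposite strand, was at 863 and 977 RPKM with miR-294, 1087 and 1198 RPKM with siMbd2 and 1158 and 1685 RPKM in CTR (-0.61 ± 0.15). The genes mt-Nd5 and mt-Nd6 overlap on opposite strands at chrM:13552-13565, and no source used here gives the strand setting of the counting, so reads there cannot be told apart. mt-Nd1, at 2891 and 3047 RPKM with miR-294, 3102 and 3241 RPKM with siMbd2 and 2559 and 3570 RPKM in CTR, and mt-Nd2, mt-Nd3 and mt-Nd4l were not called in any contrast. Neither was mt-Cytb, the complex III subunit, at 2089 and 2135 RPKM with miR-294, 2428 and 2454 RPKM with siMbd2 and 2013 and 2428 RPKM in CTR. For mt-Cytb and mt-Nd1 the miR-294 pair lay within the CTR range and below siMbd2. Of the complex V genes mt-Atp6 was lower than in CTR by 0.53 ± 0.18 (adjusted p = 0.0322), a call lost after median-of-ratios scaling (-0.46) and when miR-294 replicate 1 (-0.35) or CTR replicate 2 (-0.23) was left out, and mt-Atp8, which it overlaps, was not called.

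The 5 mitochondrial mRNAs with a nearly whole annotated nuclear copy had the lowest levels of the 13. mt-Co2, mt-Co3, mt-Atp6, mt-Nd3 and mt-Nd4l stood at 6.62 to 76.7 RPKM in any library, and each is covered over 99.0% to 99.9% of its transcript by a pseudogene on chromosome 1 (GRCm38, between 24611535 and 24616197, minus strand) at 98% identity or more. mt-Co1 and mt-Nd4, covered over 31.3% and 63.6%, stood at 548 to 5851 RPKM. The 6 genes with no annotated copy stood at 100 to 3570 RPKM. None of these pseudogenes has an entry in the table, and no source used here says how reads that match several places were counted; its part in these levels was not tested. The start of mt-Nd3 and of its copy is shown because they differ at a single base in the copy's whole length, T3C, counted from the first base of mt-Nd3; the differing base is in capitals.
mt-Nd3, chrM:9459-9486, plus strand: atTaacctgtacactgttatcttcatta
Gm28438, chr1:24613092-24613119, minus strand: atCaacctgtacactgttatcttcatta
With miR-294 against siMbd2 the changes ran from -0.79 to -0.46 in the 5 genes with a nearly whole copy, -0.40 in both genes with a part copy and from -0.39 to -0.10 in the 6 without one, so these ranges did not overlap. With miR-294 against CTR they ran from -0.78 to -0.29, from -0.45 to -0.38 and from -0.61 to -0.03 in the same order, and overlapped. With siMbd2 against CTR they ran from -0.05 to 0.39, from -0.04 to 0.01 and from -0.29 to 0.14. The genes with a nearly whole copy also had the lowest levels, and the part of copy or level in their changes was not tested.

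Nuclear genes that maintain and express the mitochondrial DNA were mostly higher with miR-294. Of 27 tested genes for mitochondrial DNA maintenance, transcription and RNA processing 16 were higher and 2 lower than in CTR (median 0.36). Over all entries 27.7% were higher and 36.8% lower. With siMbd2 8 were higher and 2 lower than in CTR (median 0.07), against 19.5% and 14.9%. With miR-294 against siMbd2 15 were higher and 4 lower (median 0.35), against 21.9% and 35.5%. For this list and those below, calls were not checked under other scalings or with a library left out. Ssbp1, the single-stranded DNA binding protein of mitochondria, was at 102 and 101 RPKM with miR-294, 53.0 and 51.0 RPKM with siMbd2 and 52.6 and 50.9 RPKM in CTR, a rise of 0.96 with miR-294. Tfam, which packages mitochondrial DNA and starts its transcription, was at 48.5 and 45.5 RPKM with miR-294, 31.3 and 32.5 RPKM with siMbd2 and 31.6 and 29.2 RPKM in CTR. For both genes siMbd2 was not distinguished from CTR, and miR-294 stood above the other 4 libraries. Fastkd5, an RNA processing factor of mitochondria, rose by 1.19 with miR-294 and 0.57 with siMbd2, and Slirp, which stabilises mitochondrial mRNAs, by 0.70 and 0.25. Peo1, the mitochondrial DNA helicase, rose by 0.71 and 0.34. The genes that fell with miR-294 were Pnpt1 (-0.23) and Rexo2 (-0.24), both of which degrade RNA.

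Among the regulators of nuclear respiratory genes 5 of 9 tested were higher with miR-294 than in CTR, against 27.7% of all entries. With siMbd2 2 were higher, against 19.5%. None was lower in either by limma (0 at an unadjusted p under 0.05). Nrf1, whose protein binds the promoter letters given above, was at 47.6 and 47.5 RPKM with miR-294, 35.2 and 33.3 RPKM with siMbd2 and 35.0 and 32.7 RPKM in CTR (0.48 with miR-294). Myc was at 25.98 and 26.95 RPKM with miR-294, 5.71 and 6.91 RPKM with siMbd2 and 1.84 and 2.41 RPKM in CTR (3.14 and 1.23). Gabpa, Pprc1 and Ppargc1b rose by 0.21, 0.26 and 0.36 with miR-294.

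Assembly factors of complex IV were more often higher than lower. Of 22 factors 12 were higher and 1 lower with miR-294 than in CTR, against 27.7% and 36.8% of all entries. With siMbd2 6 were higher and 2 lower, against 19.5% and 14.9%. Cox17, the copper chaperone, was at 231 and 224 RPKM with miR-294, 161 and 145 RPKM with siMbd2 and 141 and 125 RPKM in CTR (0.77 with miR-294). Cox20 was at 21.9 and 21.9 RPKM with miR-294, 12.1 and 10.3 RPKM with siMbd2 and 12.9 and 14.3 RPKM in CTR. Of 7 complex I factors outside the name rule 2 were higher and 1 lower with miR-294, and 1 was higher and 4 lower with siMbd2, among them Nubpl, which loads iron-sulfur clusters (6.01 and 5.75 RPKM with miR-294, 3.33 and 3.22 RPKM with siMbd2, 6.40 and 5.16 RPKM in CTR). Of 7 factors of complexes II and III 3 were higher and 1 lower with miR-294, and 1 was higher and 1 lower with siMbd2. Of 5 complex V factors 2 were higher and 1 lower with miR-294, the lower being Tmem70 (-0.66), and 1 was higher with siMbd2.

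Of 7 further chain genes outside the name rule 4 were lower and 2 higher with miR-294 than in CTR. Over all entries 36.8% were lower and 27.7% higher. Etfa, Etfb and Etfdh carry electrons from fatty acid oxidation to ubiquinone. Etfdh was at 12.6 and 13.2 RPKM with miR-294, 19.9 and 19.4 RPKM with siMbd2 and 20.3 and 20.7 RPKM in CTR, and Etfa at 53.7 and 54.5 RPKM with miR-294, 70.8 and 70.5 RPKM with siMbd2 and 78.7 and 83.4 RPKM in CTR. The falls with miR-294 were 0.63 for Etfdh, 0.57 for Etfa and 0.26 for Etfb. Dhodh, which feeds electrons from pyrimidine synthesis into ubiquinone, was higher with miR-294 by 0.72, and Cycs, the mobile cytochrome c, by 0.34. With siMbd2 2 of the 7 were lower, Etfa (-0.20) and Etfb (-0.32), against 14.9% of all entries. None was higher (2 had an unadjusted p under 0.05 in limma).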

How the data were processed

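Messenger RNA of 6 libraries was analysed from 1 deposited table of RPKM values. Per the file headers the authors scaled reads to transcript length and mapped reads, and per the labels each sample averages its lanes 1 and 2. Per the submitters' processing notes CASAVA 1.7, STAR 2.3.0, Cufflinks and the mm10 build were used, with no role or order given; no source used here gives the annotation, the strand setting or the handling of reads with several matches. The deposited table has no counts, so no count test was run. No column of per-sample values was left unassigned (0), and the authors' fold columns were not used.

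Values were taken as log2(RPKM + 1). Entries with a mean of at least 1 RPKM (11428) were fitted in limma 3.58.1 (R 4.3.3) with 3 groups in 1 model, an intensity trend, 3 residual and 5.38 prior degrees of freedom, all tests two-sided, and p-values were adjusted by Benjamini-Hochberg over all entries in each of 3 contrasts. The fit was tested on simulated data. Lengths, places and 3' UTRs came from GENCODE vM21 (GRCm38, the assembly of mm10), of which 99.5% of tested entries were matched, and near-identical stretches (98% identity, 100 bases or more) from BLAST+ 2.17.0. Other steps used Python 3.11.15, pandas 2.3.3, numpy 2.4.6 and matplotlib 3.10.9.

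The members, roles, gene lists and rules were chosen with earlier results of these data known. Named genes are all mt- genes, core subunits, isoform sets, per contrast and complex the 2 highest and 2 lowest called genes with no overlap and a mean of at least 5 RPKM, and up to 4 called genes of each list, with exceptions stated; 1 such gene is not reported here. Values after ± are standard errors. Replicate numbers were compared over groups: same-numbered libraries deviated with correlations of 0.119, 0.132 and 0.022, so they were not taken as pairs. The alternatives were 3 scalings, removal of the length trend, other filters and pseudocounts, no intensity trend, fits of only the groups compared, a replicate block and leaving out each library. The length classes were added after the data were seen.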

Additional observations from a re-analysis of the deposited data

How the results depend on the processing

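The limits are those of 2 libraries a group, unknown depth and an unequal CTR pair; small changes rest on the scaling chosen. Rescaling to the sum without mt- entries moved the median of all entries in miR-294 vs CTR to -0.23, from which the nuclear median stood 0.24 higher, against 0.26 in the deposited scaling; that difference was 0.055 with the length trend removed and -0.023 after quantile normalization. Of 95 calls of named members 51 were the same in every setting.

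Nuclear members lower in miR-294 vs CTR numbered 4 with median-of-ratios scaling, 21 after quantile normalization, 23 without mt- entries and 17 with the length trend removed, and their median change was 0.25, -0.0041, 0.0083 and 0.061. In siMbd2 vs CTR 11, 12 and 13 were lower after quantile normalization, without mt- entries and with the length trend removed, with medians of -0.023, -0.034 and -0.029. In miR-294 vs siMbd2 12, 17 and 13 were lower in the same order and 13 when only those groups were fitted; 21 were higher after quantile normalization, and the median was 0.19 with median-of-ratios scaling, 0.020 after quantile normalization and 0.028 without mt- entries. Fitted on those groups alone, 12 mt- genes were called. The cause of these shifts was not tested.

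With the replicate number as a block, calls rose from 39 to 43 higher in miR-294 vs CTR; in siMbd2 vs CTR 1 mt- gene was called, and in miR-294 vs siMbd2 5 nuclear and 10 mt- genes were lower. The numbers pair nothing that the labels state.

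Leaving out each library, miR-294 vs CTR gave 31 to 51 nuclear members higher, 4 to 13 lower, 3 to 13 mt- genes called and an mt- median of -0.75 to -0.20; the nuclear median ran from 0.14 to 0.21. siMbd2 vs CTR gave 14 to 40 higher, 2 to 14 lower, 0 to 8 mt- genes and medians of 0.040 to 0.13 (nuclear) and -0.30 to 0.26 (mt-). miR-294 vs siMbd2 gave 14 to 44 higher, 0 to 13 lower, 2 to 12 mt- genes, with nuclear medians of 0.10 to 0.13 and mt- medians of -0.43 to -0.34.

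Signs turned in miR-294 vs CTR after quantile normalization for Atp5c1 (-0.24), Cox5b (-0.26), Cox6a1 (-0.22), Cox6b1 (-0.23), Ndufa4 (-0.033), Uqcrc1 (-0.042) and Uqcrc2 (-0.14), without mt- entries for Atp5c1 (-0.15), Cox6a1 (-0.15) and Uqcrc2 (-0.14), and with the length trend removed for Cox6a1 (-0.20) and Ndufa6 (-0.16). In miR-294 vs siMbd2 they turned after quantile normalization for Ndufa4 (-0.017) and Uqcrh (-0.15). In these settings all of these genes except Ndufa4 and Uqcrc1 were called lower. Without CTR replicate 1, siMbd2 vs CTR turned for Atp5b (0.21), Ndufv1 (0.12), Uqcrc1 (0.14), mt-Atp8 (-0.32) and mt-Nd1 (-0.17). Without CTR replicate 2, it turned for mt-Nd2 (0.19) and mt-Nd4 (0.21), and miR-294 vs CTR for mt-Nd1 (0.21). Over the libraries left out, these mt- values ran from -0.32 to 0.39 (mt-Atp8), -0.17 to 0.31 (mt-Nd1), -0.28 to 0.19 (mt-Nd2) and -0.29 to 0.21 (mt-Nd4) in siMbd2 vs CTR, and from -0.27 to 0.21 for mt-Nd1 in miR-294 vs CTR.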
